A study of Mus musculus with 8 samples.

Results

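The genes examined here are 10 genes of insulin, FoxO and mTOR nutrient signalling: Txnip, Arrdc3, Irs2, Pik3r1, Akt2, Foxo1, Foxo3, Ddit4, Sesn1 and Castor1. Each was matched by its symbol in the deposited count table, which holds 28732 genes after repeated lines are removed. All 10 were found, and all 10 were among the 15564 genes that passed the filter on low counts. They were chosen for their role and with their differences between these same libraries known, so those differences are given as a description, with no test.

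RNA came from the whole cerebral cortex of adult mice, whose age is given as postnatal day 90 in the labels and as 12 to 14 weeks in the series text. The Cdh5-CreER::Tak1fl/fl mice, called cKO here, carry floxed alleles of Tak1 and a Cre recombinase that needs tamoxifen and is made under the Cdh5 promoter, which is active in endothelial cells. The control mice are littermates with the Tak1fl/fl alleles and without the recombinase, and both groups received tamoxifen. There were 4 cKO libraries, numbered 2 to 5 in the deposited table, and 4 control libraries, numbered 1 to 4. Whether every library stands for its own mouse is not labelled, and p-values cover only library-to-library spread, which may be technical. The recombinase acts in cells that line blood vessels, which are a small part of the cortex, so levels here are those of the whole tissue. In such bulk RNA fewer cells of a type and less RNA per cell cannot be told apart.

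Insulin and insulin-like growth factors bind receptor kinases that act through insulin receptor substrates on PI3-kinase, whose lipid product activates the AKT kinases. AKT phosphorylates FoxO transcription factors, which keeps them out of the nucleus, and inhibits the TSC complex, which otherwise holds back the growth kinase complex mTORC1. Amino acids reach mTORC1 by another route, in which sestrins and CASTOR proteins sense leucine and arginine and restrain it when these are scarce. In the brain the pathway is known for its part in neuronal growth, energy use and the response to fasting and stress.

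Levels are CPM, counts scaled to a common library total with TMM, a correction for library composition, and levels per length are RPKM, that is CPM per kilobase of exon. Exon length is that of all annotated transcripts of a gene, merged. A gene passed when edgeR's quasi-likelihood test gave an adjusted p below 0.05. In total 1001 of the 15564 genes passed, 535 higher and 466 lower in cKO, which is 6.43% in all, 3.44% higher and 2.99% lower. Counts of genes passed in groups of related genes, given below, stand beside these shares, and nothing is read from such counts. Library totals ran from 14429075 to 17614938 counts in cKO and from 13483354 to 17728963 in controls, with 23.9% to 25.2% and 17.3% to 24.0% of them on the mitochondrial rRNA gene mt-Rnr2. Map3k7, which encodes TAK1, stood at 38.8 ± 3.16 CPM in cKO and 40.02 ± 2.89 CPM in controls (SD, n = 4 each, edgeR adjusted p = 0.843), and its count over the whole gene does not check the deletion.

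Of the 10 genes, 6 stood higher in every cKO library than in any control library, 1 stood lower in every cKO library and 3 overlapped. The 6 were Txnip, Castor1, Ddit4, Sesn1, Arrdc3 and Irs2, the 1 was Akt2, and the 3 were Foxo1, Pik3r1 and Foxo3. Among all genes tested, 8.58% stood higher without overlap and 7.65% lower without overlap. Because the members were chosen on this contrast, nothing is read from the count.

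**Figure D1:**
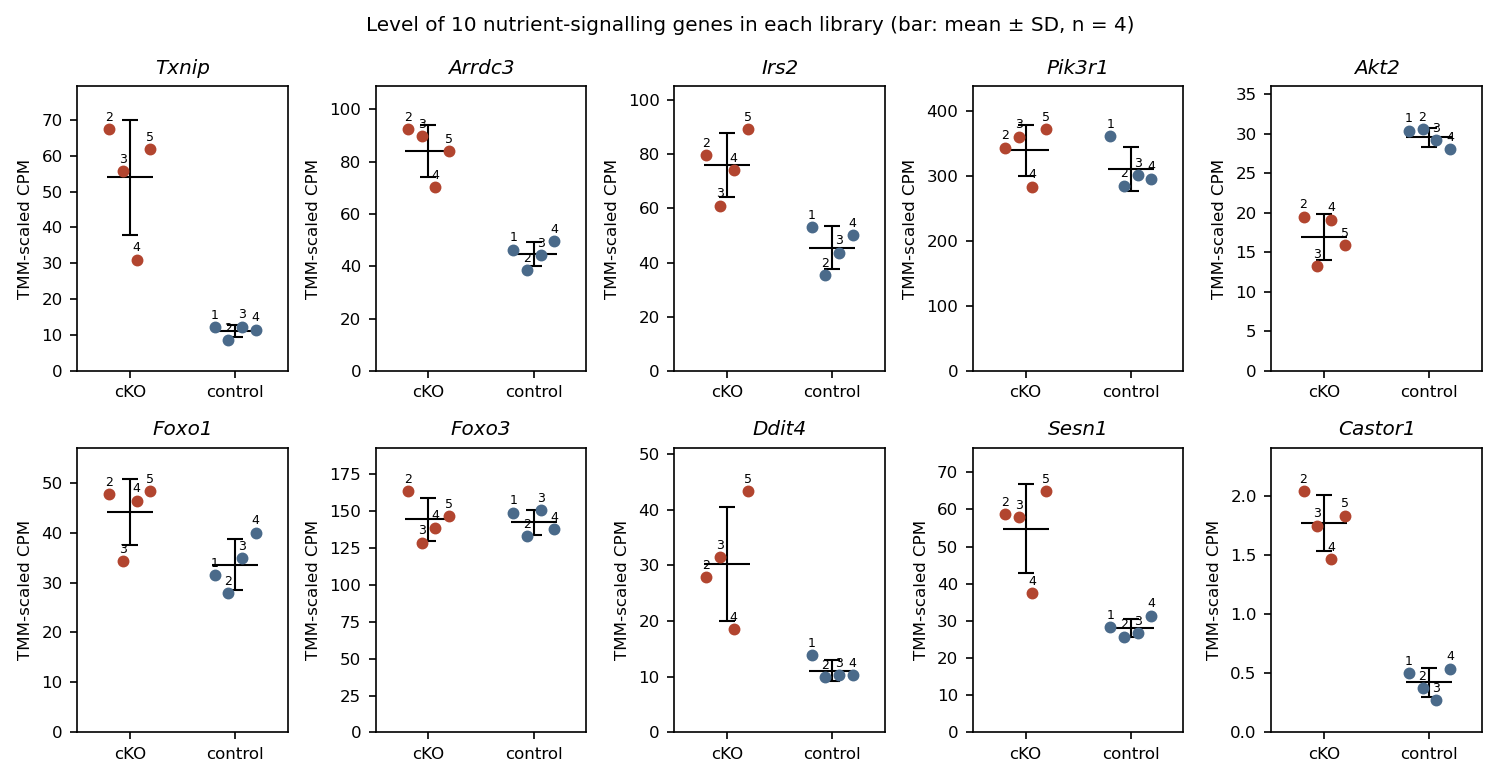
Level of each of the 10 genes, in TMM-scaled CPM on a linear axis from 0, in the 4 cKO and the 4 control libraries. Points are libraries with their number in the deposited table, bars are mean ± SD. The groups are apart for 7 genes, and cKO library 4 lies closest to the controls for Txnip, Ddit4 and Sesn1.

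Txnip showed the largest difference. It encodes thioredoxin-interacting protein, an alpha-arrestin that binds thioredoxin and draws glucose transporters from the cell surface, and whose gene is induced by glucose. Txnip (ENSMUSG00000038393) lies on the plus strand of chromosome 3, 96557957 to 96561883 in GRCm38. Its level was 67.3, 55.7, 31.0 and 61.8 CPM in cKO libraries 2, 3, 4 and 5, against 12.2, 8.60, 12.4 and 11.5 CPM in control libraries 1 to 4. Every cKO library stood above every control, and cKO library 4 was well below the other cKO libraries. The log2 fold change was 2.27 ± 0.23 (SE), and leaving out single libraries moved it between 2.15 and 2.47. The antisense gene Gm15441 shares 606 of the 3123 exon bases of Txnip, and the sources used here do not say if reads were counted by strand. Gm15441 itself was assigned at most 0.608 CPM in a cKO library and was at 0 in the controls.

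The start of Txnip is shown because it held matches to 3 of the motifs searched. In all 7 motifs were searched, on both strands, from 250 bases before to 50 after each RefSeq start (GRCm38.p6), and they were chosen after matches were seen. Capitals mark matches to the relaxed glucocorticoid response element (GNACA and TGTNC with 3 bases between them), the FoxO motif GTAAACA and the carbohydrate response element (CACGNG and CACGNG with 5 bases between them), in that order, in chr3:96557707-96558006 on the plus strand.
Txnip: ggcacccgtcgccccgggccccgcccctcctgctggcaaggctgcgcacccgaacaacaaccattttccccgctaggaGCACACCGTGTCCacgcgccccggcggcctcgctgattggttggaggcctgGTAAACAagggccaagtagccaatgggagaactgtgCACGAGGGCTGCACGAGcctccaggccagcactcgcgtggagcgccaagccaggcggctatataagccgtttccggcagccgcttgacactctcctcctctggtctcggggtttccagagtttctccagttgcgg
The matches began at positions -172, -121 and -85 from the start and did not overlap. Among 32851 such windows, 0.475% held the first motif, 3.65% the FoxO motif and 0.0487% the carbohydrate response element. The full glucocorticoid response element (AGAACA and TGTTCT with 3 bases between them, in 0.00913% of windows) and the cAMP response element (TGACG followed by TCA, in 1.79%) had no match in any of the 10 genes. A match of letters is a description and does not show binding.

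Arrdc3 (ENSMUSG00000074794, chromosome 13, 80883384 to 80896042) encodes a second alpha-arrestin, known as a regulator of beta-adrenergic receptor trafficking. It stood at 92.3, 89.7, 70.2 and 83.9 CPM in cKO libraries 2 to 5, against 46.3, 38.6, 44.3 and 49.7 CPM in control libraries 1 to 4. The groups were well apart, and the cKO libraries differed among themselves by no more than 1.31-fold. Its log2 fold change was 0.91 ± 0.12. None of its 3 promoter windows held a match.

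Their relatives did not pass the threshold. Arrdc4, another alpha-arrestin induced by glucose, was at 7.04 ± 1.33 CPM in cKO and 5.73 ± 0.77 CPM in controls (log2 fold change 0.29 ± 0.19, edgeR adjusted p = 0.345). Arrdc1, an arrestin that helps to shed vesicles at the cell surface, was at 1.46 ± 0.186 CPM in cKO and 1.24 ± 0.681 CPM in controls (0.24 ± 0.37, edgeR adjusted p = 0.729). Of 8 tested genes in the group of alpha-arrestins, thioredoxins and MLX factors beyond the members, none passed, and their median log2 fold change was 0.16. By level per length, Txnip made up 55.6%, 51.1%, 43.1% and 55.9% of the summed level of Txnip, Arrdc1, Arrdc3 and Arrdc4 in cKO libraries 2, 3, 4 and 5. In controls it made up between 25.2% and 31.4%. The alpha-arrestins Arrdc2 and Arrdc5 were not analysed here.

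Irs2 encodes insulin receptor substrate 2, the adaptor that links the insulin and insulin-like growth factor receptors to PI3-kinase, and in mouse liver it is a known FoxO target. Irs2 (ENSMUSG00000038894, minus strand of chromosome 8, 10984681 to 11008458) was at 79.6, 61.0, 74.2 and 89.2 CPM in cKO libraries 2 to 5, against 53.0, 35.4, 43.7 and 50.1 CPM in control libraries 1 to 4. The lowest cKO library, number 3, lay above the highest control, number 1. Its log2 fold change was 0.74 ± 0.15. A window at its RefSeq start, chr8:11008880-11009179 on the minus strand, held the E-box CACGTG, which is in 7.15% of all windows and is in capitals here.
Irs2: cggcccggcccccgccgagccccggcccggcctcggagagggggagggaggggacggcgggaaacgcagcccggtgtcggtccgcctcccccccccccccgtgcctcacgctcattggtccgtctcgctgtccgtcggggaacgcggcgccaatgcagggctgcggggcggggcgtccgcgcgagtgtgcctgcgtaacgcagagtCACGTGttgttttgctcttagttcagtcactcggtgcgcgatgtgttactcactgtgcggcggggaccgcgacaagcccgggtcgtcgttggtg
The paralog Irs1 was at 23.9 ± 4.88 CPM in cKO and 26.3 ± 3.73 CPM in controls (-0.14 ± 0.16, edgeR adjusted p = 0.635). By level per length Irs2 was the most abundant of the 3 tested substrates in all 8 libraries, at 72.8% to 82.6% of their sum in cKO and 62.8% to 74.0% in controls.

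The receptors upstream did not pass. Insr, the insulin receptor, was at 74.8 ± 12.3 CPM in cKO and 63.5 ± 10.2 CPM in controls (0.24 ± 0.14, edgeR adjusted p = 0.324), and Igf1r, the receptor for insulin-like growth factor 1, had a log2 fold change of 0.17 ± 0.12 (edgeR adjusted p = 0.409). Among 16 tested receptors, adaptors and inhibitors beyond the members, 2 rose and none fell. Sh2b2, an adaptor of the insulin receptor, rose to 5.12 ± 1.38 CPM in cKO, against 2.02 ± 0.29 CPM in controls (1.34 ± 0.24, edgeR adjusted p = 0.0101). Socs3, a cytokine-induced inhibitor that also binds the insulin receptor, rose to 5.16 ± 1.98 CPM in cKO, against 1.57 ± 0.438 CPM in controls (1.72 ± 0.32, edgeR adjusted p = 0.0118). Both calls were lost without control library 2 (edgeR adjusted p = 0.0521 and 0.0562). Of 8 tested ligands and binding proteins only Igfbp3, a carrier of insulin-like growth factors, passed. It was at 16.8, 21.5, 9.95 and 23.7 CPM in cKO libraries 2 to 5, against 6.27 to 6.72 CPM in controls (1.47 ± 0.23, edgeR adjusted p = 0.00728).

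Pik3r1 encodes the main regulatory subunit of PI3-kinase and was the most abundant of the 10 genes per length. Pik3r1 (ENSMUSG00000041417, chromosome 13, 101680563 to 101768217) was at 343, 360.5, 284 and 372 CPM in cKO libraries 2 to 5, against 362, 285, 302 and 296 CPM in control libraries 1 to 4. Library cKO 4 lay below all controls and control 1 lay among the cKO libraries, so the groups overlapped. The log2 fold change was 0.13 ± 0.11. Pik3r3, a smaller regulatory subunit, was at 25.5 ± 2.38 CPM in cKO and 22.3 ± 3.44 CPM in controls (0.19 ± 0.14, edgeR adjusted p = 0.419). Pik3r2 was assigned 1 count in cKO library 5 and 1 in control library 3 and was at 0 in the others, so it was not tested. The sources used here do not say how reads over overlapping genes were counted, so nothing is read from this about its expression. Among 16 tested PI3-kinase subunits and lipid phosphatases, none rose and 1 fell. Inppl1, which encodes the lipid phosphatase SHIP2, fell to 14.0 ± 2.76 CPM in cKO, against 23.0 ± 2.85 CPM in controls (-0.71 ± 0.16, edgeR adjusted p = 0.0221). That call was lost when cKO library 2 or 5 or control library 1, 2 or 3 was left out (edgeR adjusted p up to 0.0809).

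Akt2 was the only 1 of the 10 genes with a lower level in cKO. It encodes the AKT kinase best known for insulin-stimulated glucose uptake. Akt2 (ENSMUSG00000004056, chromosome 7, 27591552 to 27640826) was at 19.5, 13.3, 19.1 and 15.9 CPM in cKO libraries 2 to 5, against 30.4, 30.6, 29.2 and 28.1 CPM in control libraries 1 to 4. The controls were close together, with a ratio of highest to lowest of 1.09, and all cKO libraries lay below them. The log2 fold change was -0.80 ± 0.14, and leaving out single libraries moved it between -0.87 and -0.68. Of its 4 promoter windows, 1 held the amino acid response motif CARE (TGATG, any base, AA, in 3.97% of all windows), on the opposite strand at position -85.

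Akt1, the broadly expressed AKT kinase, did not pass. It was at 70.2 ± 3.67 CPM in cKO and 63.5 ± 0.881 CPM in controls (0.14 ± 0.09, edgeR adjusted p = 0.349), with every cKO library above every control. Per length Akt2 was below Akt1 in every library, with Akt2 at 2.38 ± 0.412 RPKM in cKO and 4.15 ± 0.164 RPKM in controls, and Akt1 at 17.1 ± 0.895 RPKM in cKO and 15.5 ± 0.215 RPKM in controls. Of 14 tested AKT and SGK kinases, regulators and substrates, only Sgk1 passed. Sgk1, a kinase related to AKT that mTORC2 activates and glucocorticoids induce, was at 129, 119, 113 and 122 CPM in cKO libraries 2 to 5, against 35.2 to 58.7 CPM in controls (1.39 ± 0.14, edgeR adjusted p = 0.00138).

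Foxo1 and Foxo3 encode the transcription factors that AKT phosphorylates. Foxo1 (ENSMUSG00000044167, chromosome 3, 52268336 to 52353221) was at 47.6, 34.3, 46.4 and 48.3 CPM in cKO libraries 2 to 5, against 31.5, 27.9, 34.9 and 40.01 CPM in control libraries 1 to 4. Of the cKO libraries, 3 stood above all controls, and number 3 lay within the control range. Its log2 fold change was 0.40 ± 0.14, and it was 0.51 without cKO library 3.

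Foxo3 (ENSMUSG00000048756, chromosome 10, 42181841 to 42276755) was at 164, 129, 139 and 146 CPM in cKO libraries 2 to 5, against 149, 133, 151 and 138 CPM in control libraries 1 to 4. The groups lay over each other, and the log2 fold change of 0.02 ± 0.10 changed sign with the library left out (-0.05 to 0.08). Per length Foxo3 was the most abundant FoxO gene in every library, at 19.1 ± 1.95 RPKM in cKO and 18.8 ± 1.12 RPKM in controls. Foxo1 followed at 5.10 ± 0.763 RPKM in cKO and 3.87 ± 0.593 RPKM in controls. Foxo4 (-0.23 ± 0.16, edgeR adjusted p = 0.390) and the brain-enriched Foxo6 (-0.27 ± 0.22, edgeR adjusted p = 0.464) did not pass. Of 13 tested FoxO factors and regulators beyond the members, 1 fell, the kinase gene Stk4 (MST1), to 42.4 ± 4.53 CPM in cKO, against 55.5 ± 2.66 CPM in controls (-0.39 ± 0.11, edgeR adjusted p = 0.0486), and it passed in only 3 of 14 alternative settings.

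Of 18 tested FoxO target genes, 5 rose and none fell, while 3.44% of all genes tested rose. Their median log2 fold change was 0.31, beside 0.00 over all genes. The list was chosen with earlier results of these data known, so nothing is read from the count or the median. Cdkn1a, the cell cycle inhibitor gene that p53 also induces, was at 3.27, 3.34, 1.29 and 4.75 CPM in cKO libraries 2 to 5, against 0.377 to 0.438 CPM in controls (2.91 ± 0.41, edgeR adjusted p = 0.00381). Cdkn1a rests on few reads, at 22 to 70 counts in cKO libraries and 6 to 8 counts in controls. Pdk4, whose kinase shuts pyruvate out of the mitochondrial cycle during fasting, rose to 32.4 ± 6.26 CPM in cKO, against 12.8 ± 2.03 CPM in controls (1.34 ± 0.17, edgeR adjusted p = 0.00333). The transcription factor gene Klf15 rose to 19.1 ± 4.77 CPM in cKO, against 9.01 ± 1.15 CPM in controls (1.08 ± 0.19, edgeR adjusted p = 0.0101), and both Pdk4 and Klf15 are also known glucocorticoid targets. The mitophagy receptor gene Bnip3 (0.62 ± 0.15, edgeR adjusted p = 0.0283) and the mitochondrial superoxide dismutase gene Sod2 (0.41 ± 0.11, edgeR adjusted p = 0.0399) also rose. The last 2 each lost their call when cKO library 2 or 5 or control library 1, 2 or 3 was left out, with adjusted p up to 0.109 and 0.125.

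**Figure D2:**
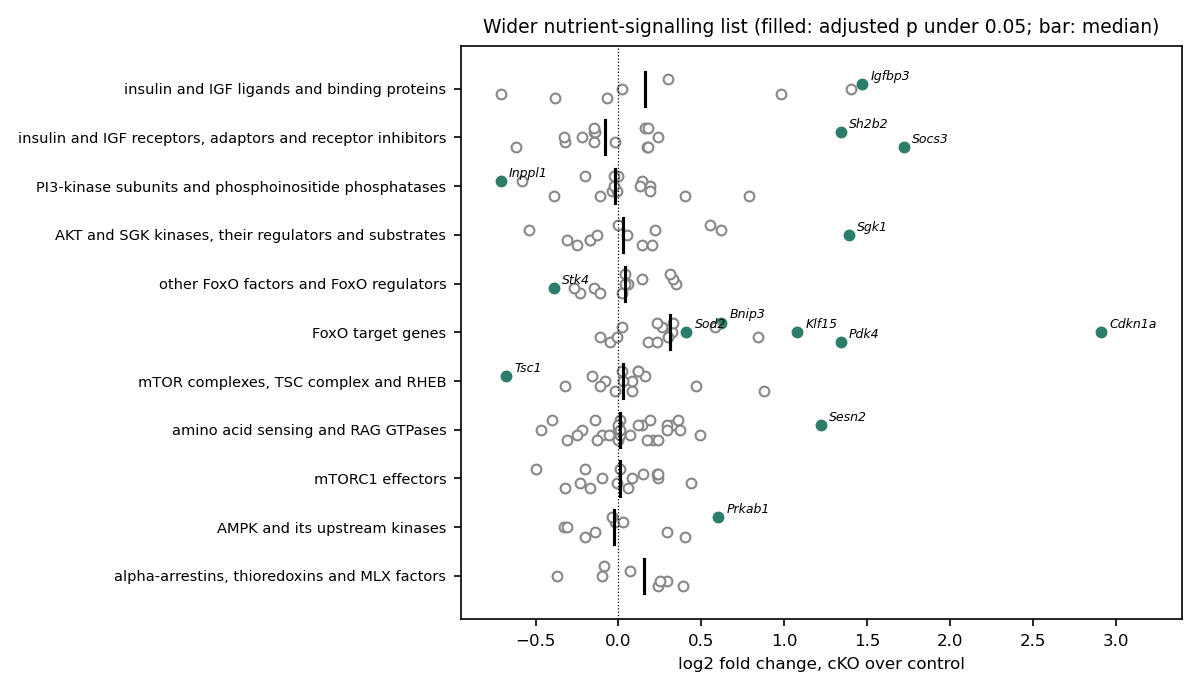
Log2 fold change, cKO over control, of each tested gene of the wider nutrient-signalling list, in rows by role. Filled points passed an edgeR adjusted p of 0.05, open points did not, and the black bar is the median of the row. The FoxO target row holds 5 of the 11 genes that rose, and the rows of mTORC1 effectors and of alpha-arrestins hold none. Over all genes tested, 6.43% passed. The list was chosen with earlier results of these data known.

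Ddit4 encodes REDD1, a stress-induced protein that restrains mTORC1 through the TSC complex and is induced by low oxygen and by glucocorticoids. Ddit4 (ENSMUSG00000020108, minus strand of chromosome 10, 59949669 to 59951834) was at 27.9, 31.4, 18.6 and 43.4 CPM in cKO libraries 2 to 5, against 13.9, 9.98, 10.3 and 10.3 CPM in control libraries 1 to 4. The groups were apart, with cKO library 4 nearest to the controls and control 1 above the other controls. The log2 fold change was 1.45 ± 0.23, between 1.23 without cKO library 5 and 1.63 without cKO library 4. Its paralog Ddit4l was at 6.86 ± 2.66 CPM in cKO and 8.62 ± 1.08 CPM in controls (-0.32 ± 0.23, edgeR adjusted p = 0.414), and it passed only without cKO library 4 (-0.62 ± 0.19, edgeR adjusted p = 0.0480). Per length, Ddit4 held 74.3% to 91.4% of the sum of both genes in cKO and 62.6% to 75.0% in controls.

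Of the complexes on which REDD1 acts, only Tsc1 passed. Among 15 tested genes of the mTOR complexes, the TSC complex and RHEB, none rose and 1 fell. Tsc1, which encodes the scaffold of the TSC complex, was at 46.4, 63.0, 81.8 and 61.4 CPM in cKO libraries 2 to 5, against 115, 95.4, 95.9 and 98.6 CPM in control libraries 1 to 4 (-0.68 ± 0.15, edgeR adjusted p = 0.0215). All cKO libraries lay below all controls, and the call was lost without cKO library 2 or 5 or control library 1 or 2 (edgeR adjusted p 0.0533, 0.0791, 0.0680 and 0.0662). Its partner Tsc2 was at 57.3 ± 2.82 CPM in cKO and 52.8 ± 8.11 CPM in controls (0.12 ± 0.12, edgeR adjusted p = 0.589). Mtor itself varied widely within the groups, at 16.7, 8.96, 18.7 and 16.4 CPM in cKO libraries 2 to 5, against 5.97, 1.69, 9.19 and 16.1 CPM in control libraries 1 to 4 (0.88 ± 0.57, edgeR adjusted p = 0.385).

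Sesn1 encodes a sestrin, a stress-induced protein of the leucine-sensing branch that binds the GATOR2 complex and that p53 and FoxO factors induce. Sesn1 (ENSMUSG00000038332, plus strand of chromosome 10, 41809935 to 41908424) was at 58.7, 57.9, 37.5 and 65.0 CPM in cKO libraries 2 to 5, against 28.3, 25.7, 26.7 and 31.4 CPM in control libraries 1 to 4. All cKO libraries were above all controls, with number 4 the nearest. The log2 fold change was 0.97 ± 0.16, and 1.12 without cKO library 4. Of its 2 promoter windows, chr10:41810324-41810623 on the plus strand held the FoxO motif on the opposite strand, at base 23 after the start, in capitals here.
Sesn1: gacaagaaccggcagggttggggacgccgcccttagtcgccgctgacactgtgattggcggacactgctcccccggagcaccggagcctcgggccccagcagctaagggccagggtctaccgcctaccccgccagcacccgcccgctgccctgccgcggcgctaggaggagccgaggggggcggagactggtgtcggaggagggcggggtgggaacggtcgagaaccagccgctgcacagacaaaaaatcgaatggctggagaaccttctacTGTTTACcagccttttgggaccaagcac
With Txnip it was 1 of 2 members with this motif.

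The other sestrins were also higher in cKO on average. Sesn2, which encodes the leucine sensor itself and is induced by amino acid shortage, rose to 5.83, 6.45, 3.75 and 8.82 CPM in cKO libraries 2 to 5, against 2.16 to 2.95 CPM in controls (1.22 ± 0.25, edgeR adjusted p = 0.0175). That call was lost without cKO library 5 (edgeR adjusted p = 0.0674) or control library 2 (edgeR adjusted p = 0.0611). Sesn3 had a log2 fold change of 0.36 ± 0.13 and did not pass (edgeR adjusted p = 0.102). Per length Sesn3 was at 15.1 ± 1.42 RPKM in cKO and 11.8 ± 2.09 RPKM in controls, while Sesn1 was at 13.7 ± 3.00 RPKM in cKO and 7.04 ± 0.620 RPKM in controls. In 2 of 4 cKO libraries Sesn1 held a larger share of summed sestrin level per length than Sesn3, and in no control. This order rests on exon lengths of 3982 bases for Sesn1 and 15269 for Sesn3. By CPM Sesn3 was above Sesn1 in every library, at 231 ± 21.7 CPM in cKO against 54.7 ± 12.0 CPM for Sesn1.

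Castor1 encodes an arginine sensor that also binds GATOR2 when arginine is low. Castor1 (ENSMUSG00000020424, chromosome 11, 4218225 to 4222409) was the least abundant of the 10 genes and rests on few reads. It was assigned 35, 23, 25 and 27 counts in cKO libraries 2 to 5, against 7, 6, 5 and 8 counts in control libraries 1 to 4. That is 2.04, 1.75, 1.46 and 1.83 CPM in cKO and 0.503, 0.377, 0.274 and 0.540 CPM in controls. The groups were apart, and the log2 fold change was 2.06 ± 0.35. Castor2, its paralog and partner, was at 88.0 ± 10.8 CPM in cKO and 94.1 ± 13.5 CPM in controls (-0.10 ± 0.13, edgeR adjusted p = 0.686). Per length Castor1 was at 6.90% to 10.4% of the sum of both in cKO and at 1.28% to 2.67% in controls. Of 29 tested amino acid sensing and RAG genes beyond the members, Sesn2 rose and none fell.

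**Figure D3:**
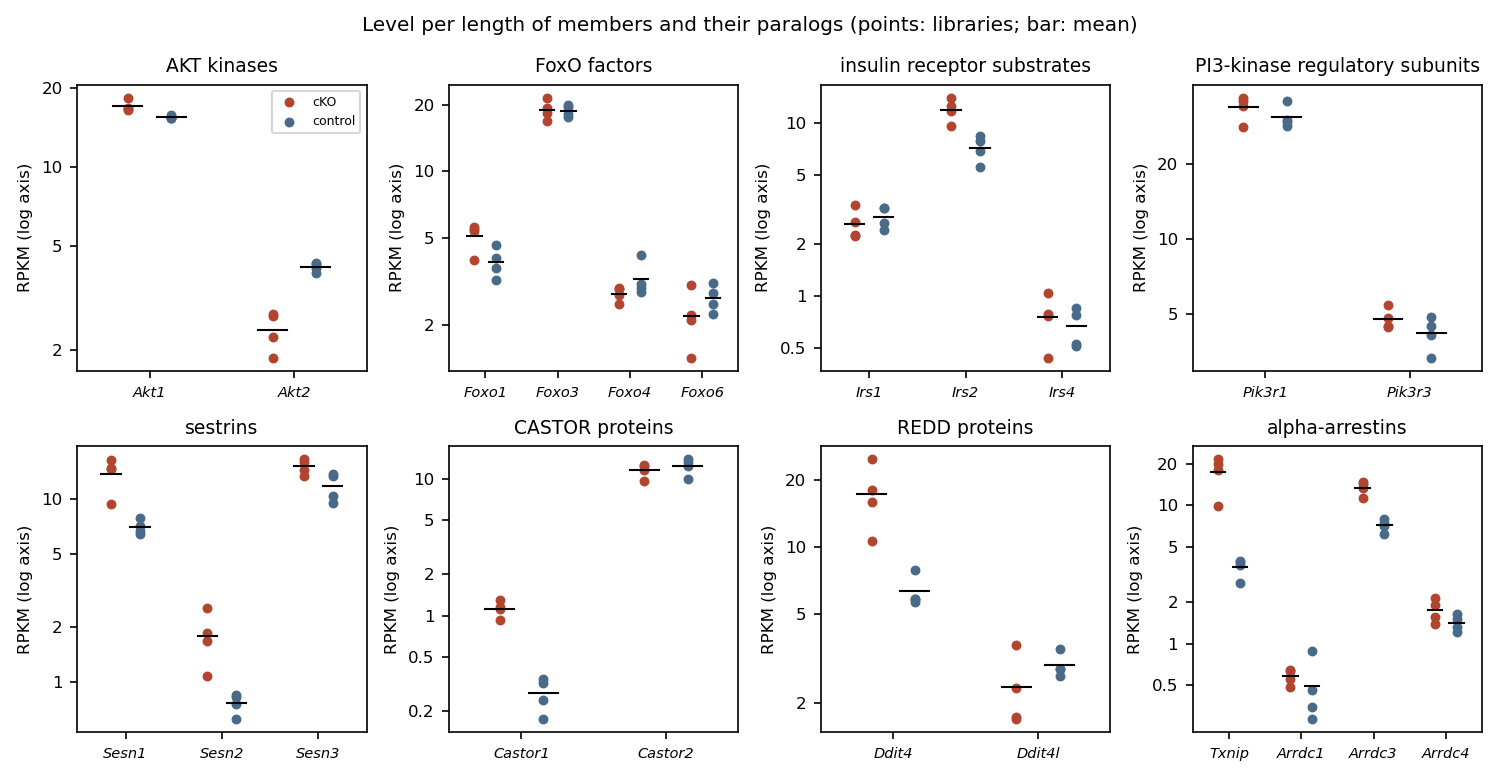
Level per length (RPKM, log axis) of the members and the paralogs reported here in each library, with cKO left of control and the mean as a bar. Txnip, Arrdc3, Irs2, Ddit4, Sesn1, Castor1 and Akt2 do not overlap between the groups, nor do Sesn2 and Akt1. Pik3r2 is left out of the plot because 6 of its 8 libraries were at 0.

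Of 15 tested mTORC1 effectors none passed, beside 6.43% of all genes tested, and their median log2 fold change was 0.01. Nothing is read from this count. Of 10 tested AMPK subunits and upstream kinases, Prkab1, a regulatory subunit of the energy-sensing kinase, rose to 8.57 ± 0.722 CPM in cKO, against 5.64 ± 0.587 CPM in controls (0.60 ± 0.16, edgeR adjusted p = 0.0390). It lost its call without the filter (edgeR adjusted p = 0.0579) and when any single library but cKO 3 or 4 was left out (adjusted p up to 0.124).

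In all, 162 of 179 genes listed in 11 groups beyond the members were tested, of which 11 rose, 3 fell and 148 did not pass. That is 8.64% of the wider list, beside 6.43% of all genes, with a median log2 fold change of 0.04 in the list. The authors' deposited table gives an adjusted p below 0.05 for all 14. The list changed most with single libraries: without cKO library 4 it held 20 higher and 13 lower genes, without cKO library 5 it held 7 and 0, and without control library 2 it held 5 and 0. Without cKO library 2 the falls were 0, as without control library 1, and without control library 3 there was 1. Of the 14, Sgk1, Pdk4, Cdkn1a, Igfbp3 and Klf15 passed in each of the 14 alternative settings.

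**Figure D4:**
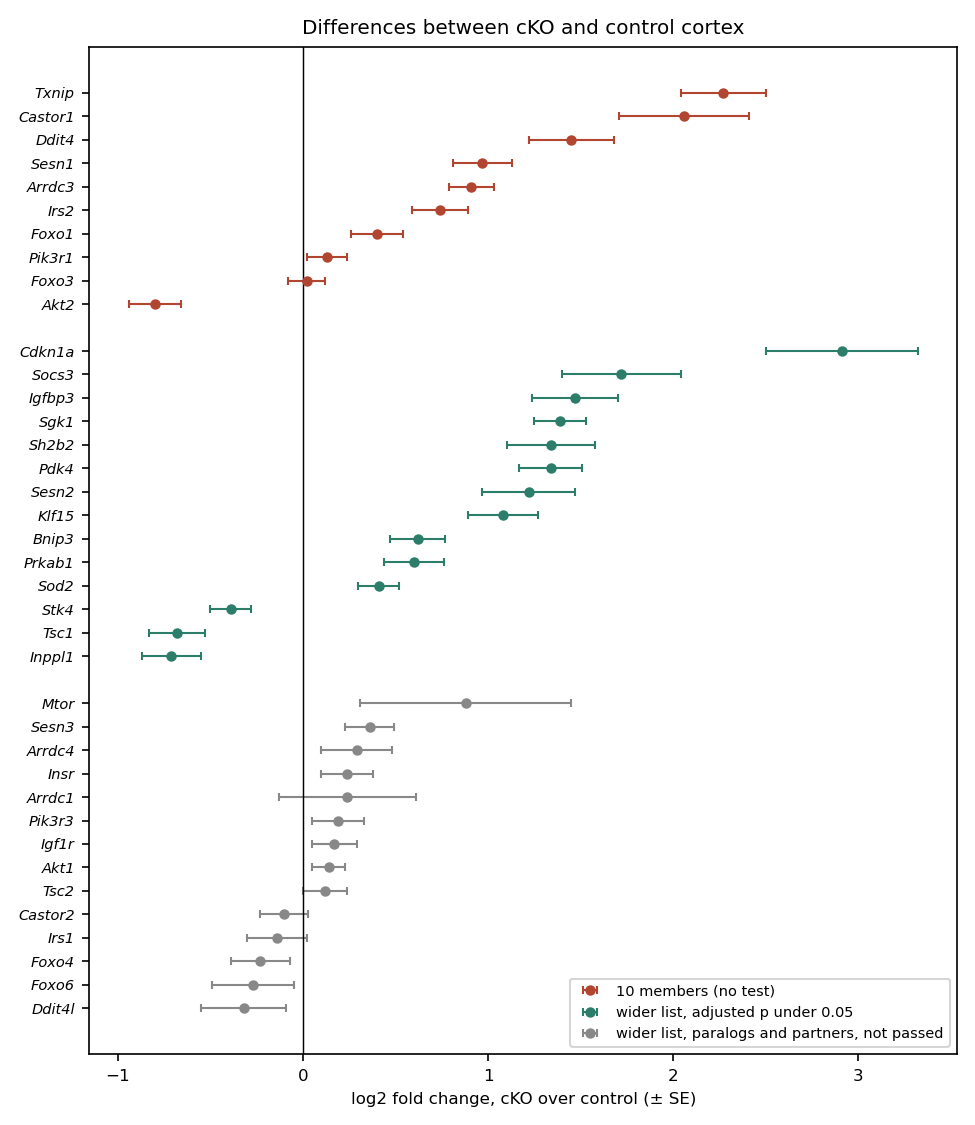
Log2 fold change, cKO over control, with its standard error, for the 10 members (no test), the 14 genes of the wider list that passed, and the paralogs and partners that did not. Akt2 at -0.80 is the only member below 0, and Cdkn1a at 2.91 is the largest rise in the plot. Cdkn1a rests on few reads, at 6 to 8 counts in control libraries.

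Ordered by level per length, the cKO libraries had Pik3r1 (33.7 RPKM) and Foxo3 (19.1) first, then Ddit4 (17.3), Txnip (17.3), Sesn1 (13.7), Arrdc3 (13.4) and Irs2 (12.0), and Foxo1 (5.10), Akt2 (2.38) and Castor1 (1.13) last. The library ranges of Ddit4, Txnip, Sesn1, Arrdc3 and Irs2 overlapped each other in cKO, and those of Ddit4 and Txnip also overlapped that of Foxo3. In controls Pik3r1 (30.9 RPKM) and Foxo3 (18.8) also came first. Irs2 (7.20), Arrdc3 (7.14), Sesn1 (7.04) and Ddit4 (6.33) followed with overlapping ranges, then Akt2 (4.15), Foxo1 (3.87) and Txnip (3.58), which overlapped as well, and Castor1 (0.269).

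The cKO libraries were not alike. Among the 4, number 4 was the lowest for Txnip, Arrdc3, Pik3r1, Ddit4, Sesn1 and Castor1, and number 3 for Irs2, Akt2, Foxo1 and Foxo3. Of the 6 members that stood higher in every cKO library, number 4 was the lowest for 5. Library 4 was also the lowest cKO library in 60.2% of all 535 genes higher in cKO. The members were chosen on this contrast, so nothing is read from their count. The ratio of the highest to the lowest library was 2.34 in cKO and 1.39 in controls for Ddit4. For Txnip it was 2.17 in cKO and 1.44 in controls, and for Sesn1 1.73 in cKO and 1.22 in controls. The SD of log2 CPM was larger in cKO than in controls for 8 of the 10 genes, and for 61.2% of all genes tested. Control library 2 was the lowest control for 8 of the 10, and the share over all genes was not computed for controls.

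**Figure D5:**
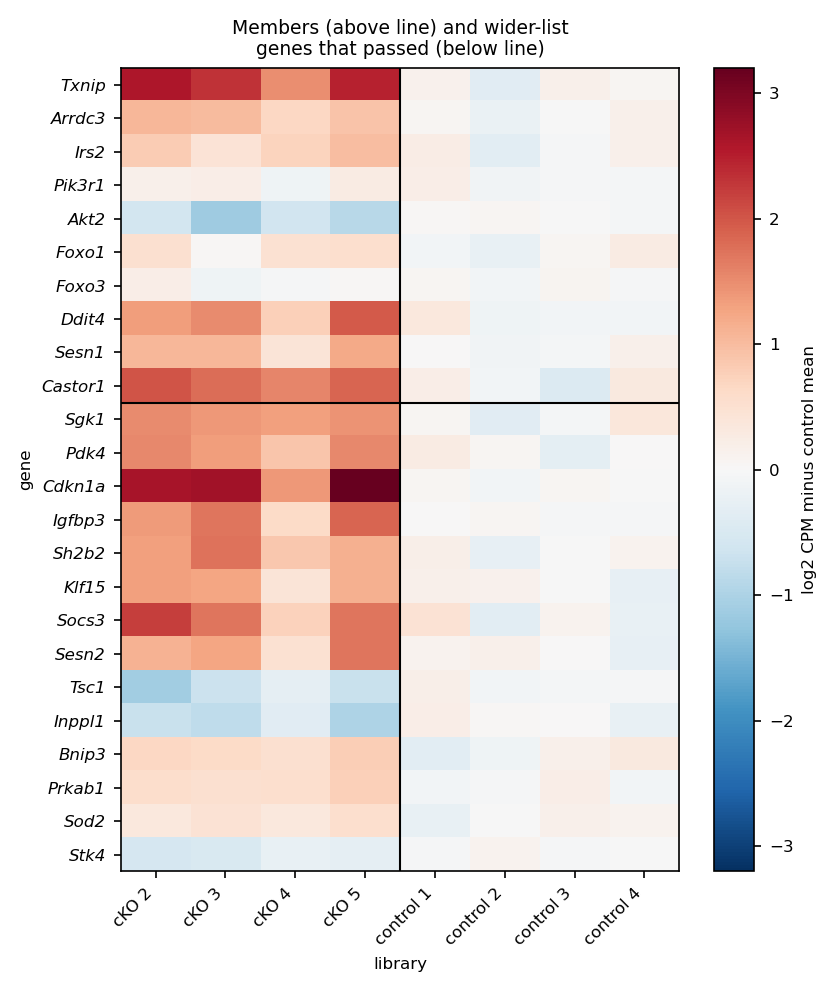
Deviation of each library from the control mean in log2 CPM, for the 10 members above the line and the 14 genes of the wider list that passed below it, with the 4 cKO libraries on the left. Library cKO 4 is paler than the other cKO libraries for Txnip (1.48, against 2.32 to 2.59) and Cdkn1a (1.39, against 2.65 to 3.18).

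Of 9 marker lists, the summed levels of 5 did not overlap between the groups and those of 4 did. Among single genes tested, 16.2% did not overlap, in either direction. No list held a gene at 0. The summed level of 8 glucocorticoid-induced genes, of which Sgk1 is also in the wider list, was 1120 to 1463 CPM in cKO and 595 to 795 CPM in controls. Of the 8, 7 passed as higher, while 3.44% of all genes tested did. All marker lists were chosen with earlier results of these data known, so nothing is read from such counts. The sum of 5 choroid plexus markers was 373 to 534 CPM in cKO and 11.5 to 184 CPM in controls, and 4 of 5 passed as higher. Control library 4 held the 184, and among the controls it was the highest for Arrdc3, Foxo1, Sesn1 and Castor1 and not for the other 6 of the 10 genes. The share of all genes highest in control library 4 was not computed, so nothing is read from this. The sum of 9 endothelial markers was 179 to 265 CPM in cKO and 153 to 202 CPM in controls, with 2 higher and 1 lower. Microglial markers summed to 113 to 230 CPM in cKO and 233 to 324 CPM in controls, with none of 5 past the test (edgeR). Neuronal markers overlapped between the groups (5894 to 7501 CPM in cKO, 6634 to 7530 in controls, 1 of 7 lower). Astrocyte markers overlapped as well (5882 to 6884 CPM in cKO, 5561 to 6594 in controls, 1 of 6 higher). Oligodendrocyte markers (3052 to 3636 CPM in cKO, 2517 to 3051 in controls, 1 of 5 higher) and thalamic markers (232 to 283 CPM in cKO, 193 to 218 in controls, 2 of 6 higher) did not overlap. The oligodendrocyte sums were only narrowly apart. Activity-induced genes summed to 528 CPM in cKO library 4, within the 455 to 541 CPM of controls, and to 121 to 225 CPM in the other cKO libraries. Of these genes, 1 of 10 passed as lower. The part of these differences in the levels of the 10 genes was not tested.

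For each of the 10 genes the named gene with the most similar log2 CPM over the 8 libraries was found, among genes with a mean of at least 5 CPM. Pnpla7 was the nearest for both Txnip (Pearson r = 0.996) and Arrdc3 (r = 0.994), Nde1 for Ddit4 (0.990), Cacnb2 for Sesn1 (0.991), Per1 for Castor1 (0.982) and Creld1 for Akt2 (0.988). Zcchc24 was nearest to Irs2 (0.981), Spata2 to Foxo1 (0.977), Hs6st1 to Pik3r1 (0.965) and Islr to Foxo3 (0.947). These are maxima over all such genes in 8 libraries that share a depth and a scaling and differ by group, so they are a description of these libraries.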

How the data were processed

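RNA-seq of whole cortex was deposited as 1 table. The submitters' processing notes name FastQC, HISAT, HISAT2, featureCounts, DESeq2 and the build GRCm38, without versions, and the labelled library kit is one for ChIP sequencing. The counts per gene were deposited as whole numbers, without normalization. The deposited mean signal is the authors' mean of counts over size factors, and the deposited log2 fold change, score and p-value columns are the authors' DESeq2 output. Columns were tied to groups only, since titles number knockouts 5 to 8 and columns 2 to 5.

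Of 29012 lines, 280 repeats were removed. GENCODE M21 gave positions and exon length (28682 IDs matched), and RefSeq windows (GRCm38.p6) matched all 10 members. Genes were kept by filterByExpr (13168 removed), TMM-scaled and compared by the robust quasi-likelihood F test of edgeR, with Benjamini-Hochberg adjustment over all genes, without covariates. The procedure was also run on simulated data, whose outcome is not given here, so no support for the calls is drawn from it. No 2 libraries of a group agreed within sampling noise (chi-square per degree of freedom at least 11.4). This was computed on counts scaled by their sum only, without TMM, so it also holds differences in library composition. Depth limits Castor1 most among the members, and it also limits Cdkn1a in the wider list.

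The members and all lists were chosen with earlier results of these data known. Named were the members, wider-list genes that passed (up to 30), fixed paralogs and partners, Map3k7, and the most alike gene per member (log2 CPM with a prior count of 2). A gene that the rule names is not reported here. Of the wider list, Ins1, Skp2, Fbxo32, Pck1, G6pc, Rps6kb2, Arrdc2 and Arrdc5 were not analysed here and 9 fell below the count filter. Alternatives were DESeq2 size factors, upper-quartile factors, no filter, 1 CPM in 4 libraries, DESeq2, limma voom and leaving out each library. Figures used matplotlib 3.10.9 under Python 3.11.15, and fits used DESeq2 1.42.0, limma 3.58.1 and edgeR 4.0.16 under R 4.3.3.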

Additional observations from a re-analysis of the deposited data

Results flagged for a closer look

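Dixon's criterion was applied to 78 groups of 4 libraries (each named gene in cKO and in controls). In 6 of them 1 library lay apart from the other 3. The criterion sets the gap against the range, so a small gap can pass where the other 3 lie close together. Chance gives about 1 in 20 for independent groups with normal spread, while these groups share the same 8 libraries. Foxo1 was at 34.3 CPM in cKO library 3, against 46.4 to 48.3 CPM in the other cKO libraries, and Ddit4 was at 13.9 CPM in control library 1, against 9.98 to 10.3 CPM in the other controls. Tsc1 was at 115 CPM in control library 1 (95.4 to 98.6 in the others) and Prkab1 at 6.51 CPM in control library 3 (5.26 to 5.46). Akt1 was at 75.7 CPM in cKO library 5 (67.9 to 68.9 in the other cKO libraries) and at 64.8 CPM in control library 3 (63.0 to 63.2 in the other controls).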

How the results depend on the processing

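Of the 10 members, 9 kept the sign of their log2 fold change in all 14 alternative settings, and Foxo3 kept it in 11. Over all genes, 535 were higher and 466 lower. Without the filter these were 821 and 745, with DESeq2 912 and 854, and with single libraries left out 93 to 1012 and 35 to 1043. Of the wider list 11 were higher and 3 lower, and with DESeq2 17 and 6. With single libraries left out there were 5 to 20 higher and 0 to 13 lower. With single libraries left out, Map3k7 ran from a log2 fold change of -0.09 to 0.00. The value of 0.00, without cKO library 2, has the opposite sign to the -0.04 over all libraries. Among the other named genes, 41 calls in single settings were lost and 1 was gained, Ddit4l without cKO library 4. The scaling shifted the median of all genes by at most 0.04 on the log2 scale. The cause of these changes was not tested; leaving out a library also leaves fewer samples. No paired analysis was possible because the sample titles number controls 1 to 4 and knockouts 5 to 8, with no number in common. Depth limits Castor1, at 5 to 8 counts in controls, and Cdkn1a, at 6 to 8 counts in controls.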
